A study of Drosophila melanogaster with 7 samples.

Results

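Small nucleolar RNAs (snoRNAs) are short non-coding RNAs that guide the chemical modification of other RNAs, above all ribosomal RNA (rRNA), in the nucleolus. Box H/ACA snoRNAs work with the pseudouridine synthase Nop60B, the fly dyskerin, and direct the conversion of uridine to pseudouridine, whereas box C/D snoRNAs work with the methyltransferase Fib (fibrillarin) and direct ribose methylation. In flies most of them lie in introns of other genes and are released from the spliced intron. FlyBase symbols carry the class and the target, so that snoRNA:Psi28S-2566 is named for a pseudouridine of the large-subunit rRNA and snoRNA:Me18S-C1968 for a methylated cytidine of the small-subunit rRNA.

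The 86 snoRNA genes described here were selected on their read counts: they are those with at least 10 counts in each of 7 RNA-seq libraries, out of 243 snoRNA genes in a table of 17753 genes. The limit used the counts themselves, so the numbers of genes that passed it and their levels are a description, with no test. All libraries were of control primary neuron cultures of the genotype w1118, each prepared from the dissociated central nervous systems of 3 third-instar larvae and kept for 7 days in vitro. The cultures hold neurons together with other cells of the larval nervous system, and no other condition was analysed here, so all comparisons are between snoRNAs or between libraries. Libraries are called CC_1 to CC_7, as in the headers of the count table, because the headers give the condition but not the numbered culture.

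The libraries held 21178515 (CC_6) to 33891136 (CC_2) counts, at which 10 counts equal 0.472 to 0.295 CPM, counts scaled to a common library total. The 5 neuronal markers elav, nSyb, Syt1, brp and Syn summed to 2111 to 2515 CPM, and the glial, neuroblast and hemocyte lists to at most 35.8, 59.9 and 60.0 CPM. Library CC_1 stood apart. It held 1057 CPM of 5 photoreceptor genes against 91.5 to 273 CPM in the other libraries, 744 against 24.8 to 239 CPM of 4 fat body and yolk genes, 85.9 against 10.2 to 24.9 CPM of 3 muscle genes and 60.0 against 27.0 to 33.5 CPM of 3 hemocyte genes. The excess of the fat body and yolk list lay in Yp1, Yp2 and Yp3, at 378, 142 and 222 CPM in CC_1. The fat body gene Lsp2 was at 1.27 CPM there and highest in CC_4, at 1.95 CPM. Likewise the hemocyte gene He was at 0.298 CPM in CC_1 and highest in CC_5, at 0.701 CPM. Both had fewer than 10 counts in some library. The part of the cells that carry these RNAs in any snoRNA level was not tested. Values without CC_1 are given for the class sums and for the sums of U3, scaRNAs and the snoRNAs of RpS5a and RpS7. In bulk RNA, a change in the share of a cell type and a change in RNA per cell cannot be told apart.

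The snoRNAs that passed were mostly box H/ACA RNAs. Of the 86, 61 carried an H/ACA name (59 Psi names and the orphans Or-aca4 and Or-aca5), 6 a C/D name (4 Me names and the orphans Or-CD2 and Or-CD10) and 19 a name of neither class. An orphan snoRNA is a snoRNA without an assigned target. The symbol prefixes alone would have put the Or-aca orphans with C/D, which gives 59 and 8. In the table, 111 H/ACA and 83 C/D genes are listed, so that 55.0% of the H/ACA genes but 7.23% of the C/D genes passed. Among names of neither class, 19 of 49 (38.8%) passed. Of all 243, 30 had 0 counts in every library, and 19 of these were C/D genes and 4 H/ACA genes. Most C/D genes that did not pass still had reads, since 58 of those 77 had a count in some library. Their highest mean level was 1.37 CPM (Me28S-G2703a). With a limit of 10 counts in at least 4 libraries, 87 H/ACA and 14 C/D genes passed.

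Class and length went together. By name, the annotated H/ACA genes were 124 to 268 bases long (median 140) and the C/D genes 46 to 140 bases (median 79). Of 98 listed snoRNA genes of at most 100 bases, 6 passed (6.12%), of 8 genes of 101 to 125 bases 1 passed (12.5%), of 129 genes of 126 to 175 bases 71 passed (55.0%), and all 8 genes of 176 to 400 bases passed. Within 126 to 175 bases, 59 of 108 H/ACA genes (54.6%) and 11 of 20 genes of neither class (55.0%) passed. The only gene with a C/D name of that length, Or-CD2 with 140 bases, passed as well. Genes of neither class that passed include snoRNA:229, of 140 bases and with a C/D synonym in RefSeq. They also include genes of the box C/D RNA U3, of 210 to 213 bases. No H/ACA gene was 100 bases or shorter, so class and length cannot be told apart for most genes of the table.

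**Figure D1:**
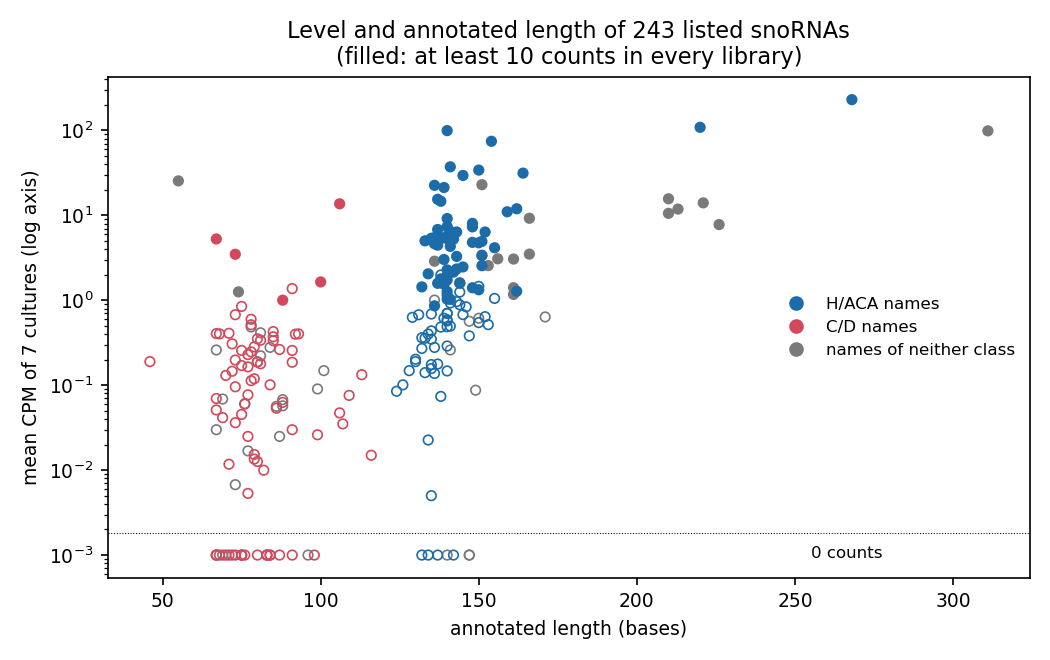
Annotated length of each listed snoRNA gene (bases, x axis) against its mean level over the 7 libraries (CPM, log y axis), coloured by class, filled where the gene has at least 10 counts in every library, and with genes without a count drawn under the dotted line. Genes with C/D names lie between 46 and 140 bases and reach 13.7 CPM. Those with H/ACA names lie between 124 and 268 bases and reach 231 CPM.

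Counting on overlapping genes also differed between the classes. An exon of another gene on the same strand covers 20 of the 243 snoRNA genes in the annotation, 18 of these had 0 counts in every library and 0 passed. Of the 20, 15 are C/D genes, 14 of them at 0, among them the 6 C/D genes inside Nop60B. Without such genes 6 of 68 C/D genes passed (8.82%), and 5 were at 0. In C/D genes of at most 100 bases without such an overlap, 4 of 61 passed (6.56%) and the median level was 0.179 CPM. In H/ACA genes of 126 to 400 bases without such an overlap, 61 of 109 passed (56.0%) and the median level was 1.44 CPM.

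The limit cut through a continuous range of levels. Just inside it were Psi28S-2996 at 0.860 ± 0.290 CPM (SD, n = 7) and Psi28S-3316b at 1.03 ± 0.420 CPM, each with a lowest count of 10. Psi28S-1135c had the same lowest count, in CC_4, but a mean of 2.34 CPM. The lowest count of Psi28S-3327a and of the C/D RNA Me28S-G3253 was 11. Just outside were Psi28S-3186 at 0.964 ± 0.396 CPM, Psi18S-640g at 0.630 ± 0.266 CPM and Psi28S-3327b at 0.590 ± 0.262 CPM, each with a lowest count of 9. Psi28S-3385a and Psi28S-2149 had a lowest count of 8, with means of 1.46 and 1.25 CPM, both above some of the 86 snoRNAs that passed. Whether a snoRNA of about 1 CPM passed was thus set by its lowest library.

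Levels of the 86 snoRNAs reached from 0.860 to 231 CPM around a median of 4.88 CPM. Among these 86 the medians of the classes were close, at 4.81 CPM for H/ACA, 4.38 CPM for C/D and 5.73 CPM for the names of neither class. In the single libraries the median over the H/ACA RNAs was 4.63 ± 0.890 CPM and that over the C/D RNAs 4.21 ± 0.583 CPM (SD, n = 7), a difference within the spread. Per kilobase of annotated length the order of the classes turned, with 32.7 CPM per kb for H/ACA and 44.2 CPM per kb for C/D. The classes differed in the upper end of their range. By name, the highest C/D level was 13.7 CPM and the highest H/ACA level 231 CPM. Of the names of neither class, snoRNA:185, with a C/D synonym in RefSeq, stood at 25.5 CPM. U3:54Ab, a gene of the box C/D RNA U3, stood at 15.7 CPM. The limit on counts bounds the levels of both classes from below, so the close medians describe only the snoRNAs that passed. With no limit the medians over the listed genes were 1.41 CPM for H/ACA and 0.0958 CPM for C/D.

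**Figure D2:**
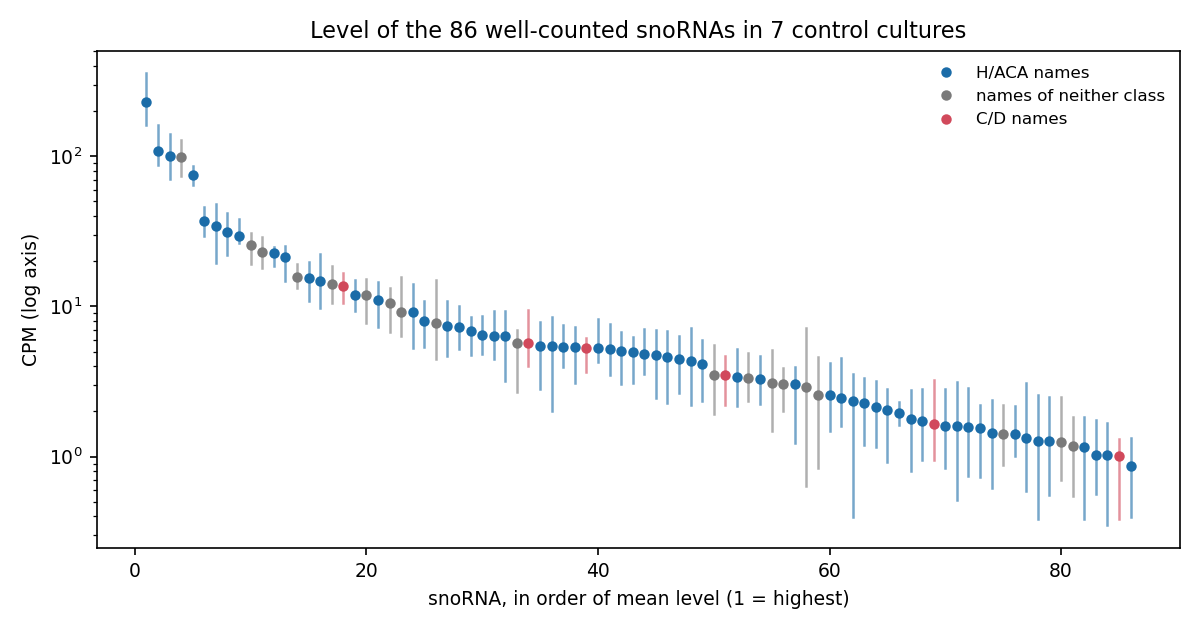
Mean level of each of the 86 snoRNAs (CPM, log axis) in order of level (x axis, rank), coloured by class, with a line from the lowest to the highest of the 7 libraries. Levels fall from 231 to 0.860 CPM, the 3 highest are H/ACA RNAs, and the 6 RNAs with C/D names lie at or below 13.7 CPM.

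A few H/ACA RNAs held most of the class. Psi28S-2566 alone gave 25.2% of the summed H/ACA level, the 4 highest gave 56.1% and the 10 highest 75.3%. Over all 86 snoRNAs the highest 5 gave 51.4% and the highest 10 64.7%. H/ACA RNAs made up 76.9% of the total of the 86, C/D RNAs 2.58% and the names of neither class 20.5%.

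Psi28S-2566 is a guide for a pseudouridine of the large-subunit rRNA and lies on chromosome 3L from 18896189 to 18896456 (BDGP6.54 assembly, minus strand), 268 bases in an intron of CG3902. Its lowest, median and highest levels were 160, 215 and 356 CPM, with a mean of 231 ± 67.1 CPM (SD, n = 7) and at least 4304 counts in every library. CC_6 was highest and CC_1 lowest. The second most abundant, Psi28S-291 (chromosome 3R, 11223571 to 11223790), lies in an intron of RpL3, the gene of a large-subunit ribosomal protein. It had 87.4, 98.6 and 160 CPM as lowest, median and highest values, and 109 ± 26.0 CPM as a mean. Psi18S-1820, a small-subunit guide (chromosome 2R, 24176228 to 24176367), lies in an intron of Nop60B, the gene of the enzyme with which H/ACA RNAs work. Its values were 70.9, 94.7 and 140 CPM, and its mean 99.6 ± 26.0 CPM. CC_6 was again the highest library for both of these.

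Psi18S-176 (chromosome 2R, 23839911 to 23840064) differs from these in lying outside other genes. Its lowest, median and highest levels were 64.4, 71.9 and 86.0 CPM, and it varied little, with a coefficient of variation (CV) of 12.3%. The next, Psi28S-3436a and Psi28S-1060, lie beside each other in RpL17 on chromosome X. Psi28S-3436a had 29.6, 36.5 and 46.1 CPM and Psi28S-1060 19.6, 33.7 and 48.0 CPM as lowest, median and highest values. The range of Psi28S-3436a lay within that of Psi28S-1060. Psi28S-3342, on chromosome X outside other genes, followed with 22.0, 29.3 and 41.9 CPM. Psi28S-1180, in an intron of tou, had 26.4, 28.5 and 38.4 CPM, with only CC_5 above 30.5 CPM. The last of the 10 highest H/ACA RNAs, Psi18S-1377d and Psi18S-1377a in RpS7, had means of 22.6 ± 2.13 and 21.3 ± 3.71 CPM. Psi18S-1377d had the lowest CV of the 86, 9.45%.

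In the order of all 86 levels, most neighbours differed by less than the spread between libraries. Of the 85 pairs of neighbours, 4 differed by more than the larger of their SDs. These were Psi28S-2566 above Psi28S-291, Tudor-SN-a above Psi18S-176, Psi18S-176 above Psi28S-3436a, and Psi18S-1377a above U3:54Ab. All other neighbours, Psi28S-291 and Psi18S-1820 among them, lay within their spread. That spread leaves out that both RNAs of a pair were measured in the same libraries. The 4 pairs kept their order in all 7 libraries. Psi28S-3436a was above Psi28S-1060 in 6 of 7 libraries and Psi28S-291 above Psi18S-1820 in 5, but Psi28S-1175b above Psi28S-3436b in only 2. The paired order was not tested.

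The 6 C/D RNAs were led by Me18S-C1968, a 106-base RNA in an intron of Swim on chromosome 2R, which also carries the synonym SNORD13 in RefSeq. Its lowest, median and highest levels were 10.5, 13.5 and 16.7 CPM, and its mean was 13.7 ± 2.07 CPM (SD, n = 7), or 44.5% of the summed C/D level. Or-CD2, in the non-coding host gene Uhg4, had 4.02, 5.13 and 9.54 CPM as lowest, median and highest values, with CC_1 and CC_7 as its high libraries. Or-CD10, 67 bases in RpL7A, ranged from 3.64 to 6.17 CPM. Both orphans have no assigned target. Me28S-A1322, in the translation elongation factor gene eEF1alpha1, had 2.22 to 4.69 CPM. Me18S-C1366, in Uhg5, had 0.954 to 3.26 CPM with a median of 1.26 CPM, so that CC_6 stood well above the middle of its range. Me28S-G3253, in RpS9, was the lowest with 0.385 to 1.30 CPM. Of the 6, 2 overlap an exon on the other strand, Or-CD2 that of Ctu1 and Me28S-G3253 that of asRNA:CR45874. Whether the counting used strand is not stated, and their counts may include reads of those genes.

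The 19 names of neither class hold several abundant RNAs. Tudor-SN-a, 311 bases in an intron of Tudor-SN, had 73.8, 95.6 and 127 CPM as lowest, median and highest values and a mean of 99.0 ± 17.0 CPM, 40.5% of the sum of these 19. The RNA snoRNA:185, only 55 bases long and outside other genes, had 19.1, 23.9 and 31.0 CPM. Its 463 CPM per kb was the fifth highest of the 86 on that scale, and its RefSeq synonym, DmOr_cd5, places it with the C/D orphans. The RNA called snoRNA:2R:9445410 had 18.1 to 29.2 CPM, and its neighbour snoRNA:2R:9445205, of the same length of 151 bases, 2.35 to 4.92 CPM. Of a pair in Usp10, CG32479-b had 10.5 to 18.7 CPM and CG32479-a 4.45 to 15.1 CPM. The remaining RNAs of this group had means from 1.17 CPM (lola-b) to 9.25 CPM (Dek-a), and those in between were snoRNA:229 in Fib (5.73 CPM), lola-a (3.50 CPM), SC35-b (3.08 CPM), Pi4KIIalpha-a (3.06 CPM), lola-d (2.89 CPM), SC35-a (2.56 CPM), gcl-a (1.41 CPM) and snoRNA:291 in Prp39 (1.26 CPM).

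U3 is the box C/D snoRNA that takes part in cleavage of the rRNA precursor rather than in its methylation, and its 3 genes passed. U3:54Ab had 13.3, 14.8 and 19.3 CPM as lowest, median and highest values, U3:9B 7.79, 11.7 and 15.3 CPM, and U3:54Aa 6.72, 10.7 and 13.3 CPM. The ranges of all 3 over the libraries overlapped, although those of U3:54Ab and U3:54Aa barely met, at 13.3 CPM. The 3 genes, of 210 to 213 bases, summed to 38.1 ± 5.01 CPM (SD, n = 7; 37.8 CPM without CC_1), beside 30.8 ± 4.15 CPM for the 6 C/D names together, on a CPM scale that is not corrected for length. Near-identical copies may share reads, and how reads that map to several genes were counted is not given, so the split between the U3 genes is uncertain while their sum is less so. When U3 and the RNAs with a C/D synonym in RefSeq (snoRNA:185, snoRNA:229 and snoRNA:291) were counted as C/D, and SC35-a and Dek-a as H/ACA, a choice made after the data were seen, there were 12 C/D and 63 H/ACA RNAs. The C/D sum was then 101 ± 12.2 CPM and the H/ACA sum 928 ± 155 CPM.

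Summed over the class, H/ACA RNA exceeded C/D RNA in every library. The H/ACA sums were 940, 796, 929, 759, 868, 1225 and 900 CPM in CC_1 to CC_7, with a mean of 917 ± 152 CPM (SD, n = 7). The C/D sums were 36.1, 34.8, 32.0, 25.4, 25.9, 32.2 and 29.1 CPM, with a mean of 30.8 ± 4.15 CPM. The ranges of the classes were far apart. The ratio of the sums was 26.0, 22.9, 29.1, 29.8, 33.5, 38.1 and 30.9 in the same order, or 30.0 ± 4.95. The size of the ratio depended on how the names were classed. It was 17.6 with all orphans counted as C/D and 9.19 ± 1.22 with the synonyms and U3. Without the most abundant RNA of each class it was 40.8, and without CC_1 30.7. The numbers of genes that passed, 61 and 6, enter the sums directly. Without CC_1 the sums were 913 CPM for H/ACA and 29.9 CPM for C/D.

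**Figure D3:**
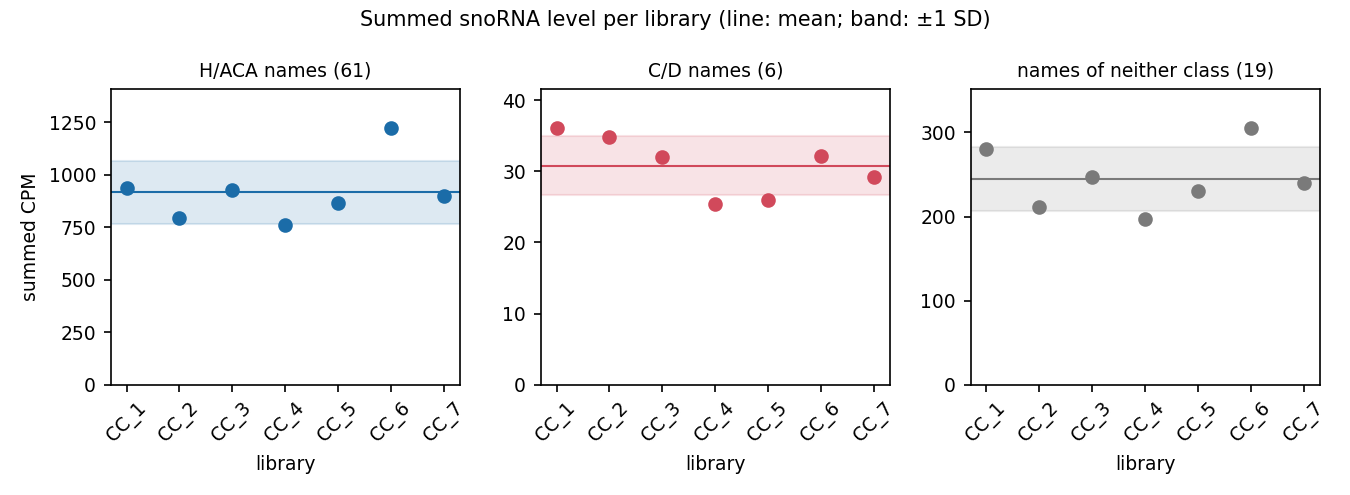
Summed level of the H/ACA, C/D and other snoRNAs in each of the 7 libraries (CPM, y axes from 0, each class with a scale of its own), with the mean as a line and 1 SD on either side as a band. H/ACA sums lie between 759 and 1225 CPM and C/D sums between 25.4 and 36.1 CPM, and CC_6 is the highest library for H/ACA and CC_1 for C/D.

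All 86 snoRNAs together took 0.119% ± 0.0189 (SD, n = 7) of the counts, from 0.0982% in CC_4 to 0.156% in CC_6. The 157 snoRNAs that did not pass summed to 41.6 ± 7.37 CPM. The highest library was CC_6 for 32 of the 86 snoRNAs and CC_1 for 30, and CC_4 was the lowest for 32 and the highest for 0. The same counts over all genes were not computed, so these cannot be read as particular to snoRNAs. CC_6 also had the smallest total count. The small Cajal-body RNAs (scaRNAs), relatives of snoRNAs that modify spliceosomal RNAs, were highest in the same library, with 378 CPM in CC_6 and 284 ± 51.3 CPM over all (279.6 CPM without CC_1). Of 15 scaRNA genes listed, 3 had at least 10 counts in every library, and MeU5-C46, at 265 ± 48.0 CPM, made up most of the sum. The genes that host the H/ACA RNAs did not follow, and CC_6 held their lowest sum, 11057 CPM against a mean of 11474 ± 340 CPM.

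Most of the 86 lie in introns, as do most of the listed snoRNA genes (210 of 243). Of the listed intronic genes 35.7% passed, and of the 11 listed outside other genes 81.8% passed. In the annotation 75 lay within an intron of 35 host genes on the same strand, 71 of them in protein-coding hosts and 4 in non-coding hosts. A further 9 lay outside other genes and 2 (Or-aca4 and Psi28S-2622) within a gene of the other strand. The 9 outside other genes had a median level of 15.7 CPM against 4.31 CPM for the 75 in introns, and included Psi18S-176, Psi28S-3342, snoRNA:185 and the 3 U3 genes. Ribosomal protein genes were the most common hosts, with 32 snoRNAs in 12 of them. Their share over all listed snoRNAs was not computed. The 32 leave out Psi18S-531, which lies within RpL22 but was assigned to the smaller lncRNA:CR42491.

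Levels per kilobase were set beside those of the exons of the same host. The snoRNA was the denser in 16 of the 75, 7 of 56 H/ACA, 1 of 6 C/D and 8 of 13 of neither class. The median ratio was 0.172 (0.114 for H/ACA, 0.0685 for C/D and 1.08 for neither). It was above 10 for 2 snoRNAs. Psi28S-2566 had 414 times the density of CG3902, a host at only 3.29 ± 1.86 CPM, and Psi18S-1820 had 45.9 times that of Nop60B. The ratio was 5.41 for Tudor-SN-a in Tudor-SN, 3.72 for Psi28S-1180 in tou and 2.36 for Me18S-C1968 in Swim. For Psi28S-291 it was 1.18, because its host RpL3 was itself abundant, at 932 ± 121 CPM. The lowest ratio was 0.0160, of Psi28S-3327a in RpS4. Psi18S-531, at 41.9 CPM per kb, counts as denser beside its smallest host, lncRNA:CR42491, at 22.7 CPM per kb. It also lies within RpL22, at 194 CPM per kb, beside which it would not. Reads of unspliced host RNA cannot be told apart from reads of the mature snoRNA in these counts.

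**Figure D4:**
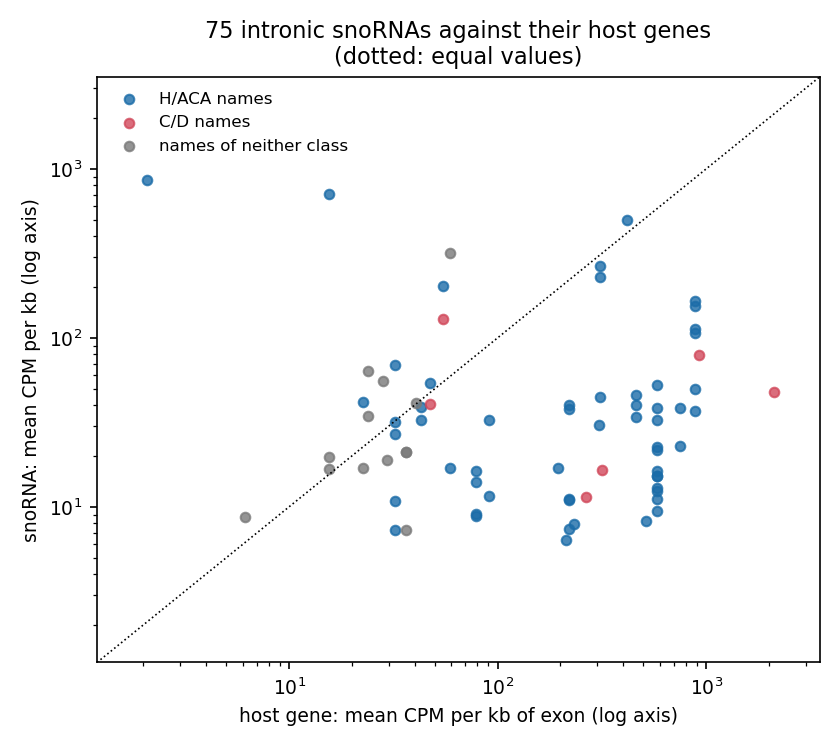
Level per kilobase of each intronic snoRNA (CPM per kb, log y axis) against that of the exons of its host gene (CPM per kb, log x axis), with a line of equality. Of 75 snoRNAs, 16 lie above the line, and Psi28S-2566 lies farthest above it with a ratio of 414.

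SnoRNAs annotated within the same host gene differed in level. RpS5a, a small-subunit ribosomal protein gene on chromosome X at 802 ± 41.6 CPM, held the most, 12 of its 14 listed snoRNAs. Their densities spanned 5.55 times, and they summed to 37.1 ± 6.03 CPM (35.5 CPM without CC_1, the highest library). RpS7 held 6 of 7, spanning 4.49 times per kb, with a sum of 86.1 ± 13.1 CPM (83.7 CPM without CC_1, again the highest). In dom, a chromatin remodeller gene with 15 listed snoRNAs, 5 passed, spanning 9.52 times, and in kra 5 of 8 passed, spanning 5.40 times. The spans were 5.93 times over 3 RNAs in RpL17, 2.91 times over 3 in lola, 1.84 times over 4 in Hrb98DE, and 1.35 times over 3 in RpS16. The spread was thus widest in dom and narrowest in RpS16 among the 8 hosts with 3 or more.

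Hosts that hold both classes allow the classes to be set side by side within a gene. In the table there are 6 such genes, Nop60B, RpL3, RpS16, Sf3b3, Uhg4 and dom. In them 13 of 23 H/ACA genes and 1 of 19 C/D genes passed, and the highest H/ACA level was above the highest C/D level in 6 of 6, Nop60B included. In each of the 6 hosts every listed C/D gene is shorter than every listed H/ACA gene, so class and length cannot be told apart here either. The lengths were 106 to 109 against 132 to 159 bases in dom, and 77 to 140 against 148 to 155 bases in Uhg4. In RpL3 the H/ACA RNA Psi28S-291 stood at 109 CPM and the highest of 3 C/D RNAs, Me28S-G2017, at 0.402 CPM. In Uhg4 the values were near each other, with 8.05 CPM for Or-aca5 and 5.69 CPM for Or-CD2. In Nop60B the 6 C/D genes overlap exons of Nop60B and are listed at 0, so this host adds no comparison of levels. The Uhg genes, non-coding genes known as snoRNA hosts, themselves ranged from 2.18 CPM (Uhg7) to 256 CPM (Uhg5). Of the 47 snoRNAs listed in the 7 Uhg genes, 3 passed (Or-aca5, Or-CD2 and Me18S-C1366).

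Several guides exist as sets of copies with the same target. The 5 copies named Psi18S-1377 a to e, all in RpS7, passed with means from 6.82 to 22.6 CPM, a span of 3.31 times. Of 6 copies of Psi28S-1135, 5 passed with 1.41 to 4.94 CPM, and all 3 copies of Psi18S-1854 passed with 1.54 to 5.35 CPM. Both sets lie in RpS5a. Psi28S-3436a and b in RpL17 differed most among the sets named here, 37.3 against 6.37 CPM, or 5.85 times. All 3 copies of Psi28S-1175 in RpS16 were alike, between 4.64 and 6.48 CPM. Other sets did not pass at all, with 0 of 11 copies of Psi18S-525, 0 of 7 of Psi18S-640 and 0 of 4 of Psi18S-841. No set of copies with a C/D name had a copy that passed, for example 0 of 3 of Me18S-U1356 and 0 of 3 of Me28S-G2703. Copies may be similar enough to share reads, so the division of counts within a set is uncertain.

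The mRNAs of the proteins that bind the snoRNAs were counted in every library, and the proteins themselves were not measured here. Of the H/ACA core, Nop60B stood at 52.9 ± 4.17 CPM, NHP2 at 15.2 ± 2.52 CPM, Gar1 at 14.6 ± 1.62 CPM and Nop10 at 3.20 ± 1.17 CPM (SD, n = 7). Of the C/D core, Fib stood at 53.4 ± 4.59 CPM, Nop56 at 43.4 ± 3.33 CPM and nop5 at 41.0 ± 4.46 CPM. Per kilobase, Fib was the highest of these 7, at 40.5 CPM per kb, and Nop10 the lowest, at 10.1 CPM per kb. The assembly factors pont and rept, the ATPases that help to build snoRNPs, had 30.6 ± 2.67 and 58.4 ± 4.67 CPM. Nopp140, a nucleolar chaperone of snoRNPs, had 77.2 ± 6.50 CPM, and coil, the coilin of Cajal bodies, 32.1 ± 1.59 CPM. On the scale per kilobase the 3 C/D core mRNAs analysed, at 22.6 to 40.5 CPM per kb, lay above the 4 H/ACA core mRNAs, at 10.1 to 19.5 CPM per kb. The mRNA of a further C/D core protein, hoip, was not analysed, so the C/D set is incomplete.

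Across the 7 libraries the class sums were compared with each other, with their hosts and with the mRNAs of their core proteins. These 5 correlations had two-sided exact permutation tests. For the H/ACA and C/D sums, Pearson's r was 0.31 (exact permutation p = 0.537, and 0.537 when adjusted by the Benjamini-Hochberg method over 5) and Spearman's rho = 0.57 (exact permutation p = 0.200, adjusted p = 0.444). Without CC_6 and CC_4, the libraries farthest from the median H/ACA sum, r was 0.04. The H/ACA sum against its hosts gave r = -0.53 (exact permutation p = 0.232, adjusted p = 0.461) and rho = -0.39 (exact p = 0.396, adjusted p = 0.495), and r was -0.14 without the same libraries. That relation moved with the scaling, to r = -0.82 with TMM factors (exact permutation p = 0.0238, adjusted p = 0.119) and -0.81 with DESeq2 size factors (exact permutation p = 0.0339, adjusted p = 0.170). Against its core proteins it gave r = -0.45 (exact permutation p = 0.277, adjusted p = 0.461) and rho = -0.21 (exact p = 0.662, adjusted p = 0.662), with r = 0.58 without those libraries, -0.77 with TMM factors (exact permutation p = 0.0746, adjusted p = 0.187) and -0.73 with DESeq2 size factors (exact permutation p = 0.0911, adjusted p = 0.228). Without Psi28S-2566 and Me18S-C1968, the highest RNA of each class, it was -0.18, and r between the class sums was 0.63 (exact permutation p = 0.130, adjusted p = 0.575). The C/D sum against its hosts gave r = -0.53 (exact permutation p = 0.221, adjusted p = 0.461) and rho = -0.50 (exact p = 0.267, adjusted p = 0.444), with r = 0.48 without CC_4 and CC_5. Against its core proteins it gave r = -0.40 (exact permutation p = 0.381, adjusted p = 0.476) and rho = -0.64 (exact p = 0.139, adjusted p = 0.444), with r = -0.37 without CC_4 and CC_5. After adjustment no relation passed the threshold under any of these choices, and 2 changed sign without their 2 farthest libraries. Without CC_1 these 2 correlations were -0.88 for H/ACA against core proteins and -0.86 for C/D against hosts (n = 6, exact permutation p = 0.0347 and adjusted p = 0.0868 each), a choice made after the data were seen.

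The libraries differed by more than counting error for almost all snoRNAs, as they did for almost all genes. In a chi-square test of equal CPM with Poisson counts, run on 9476 genes with at least 10 counts in every library, 97.9% of all genes varied at an adjusted p under 0.05, and 85 of the 86 snoRNAs did (98.8%). These were 60 of 61 H/ACA, 6 of 6 C/D and 19 of 19 of neither class. The share is that of the background. The 1 snoRNA that did not pass was Psi28S-3405c in Hrb98DE, at 1.61 to 2.31 CPM (CV 13.5%, adjusted p = 0.439). The test measures the spread between these libraries, which may be technical or biological.

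The biological coefficient of variation (BCV), the spread left after counting error, had a median of 0.295 over the 86 snoRNAs and 0.152 over the 9476 genes. The medians were alike in the classes, at 0.295 for H/ACA, 0.300 for C/D and 0.285 for neither. The snoRNAs are also low in count, with a median of 132 counts per library against 651 for all genes, and the BCV of all genes rises as counts fall. At the level of each snoRNA the trend of all genes had a median of 0.302, and 38 of the 86 (44.2%) lay above it against 27.1% of all genes. The median BCV of the snoRNAs was near the trend, but the method pulls these values towards that trend, so the nearness is partly built in. A larger share of the snoRNAs than of all genes lay above the trend, a difference that was not tested. Gene-wise DESeq2 values, which are not pulled, had medians of 0.272 for the snoRNAs and 0.130 for all genes. They were not set beside a trend. The median edgeR BCV of the snoRNAs was 0.278 without CC_1.

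**Figure D5:**
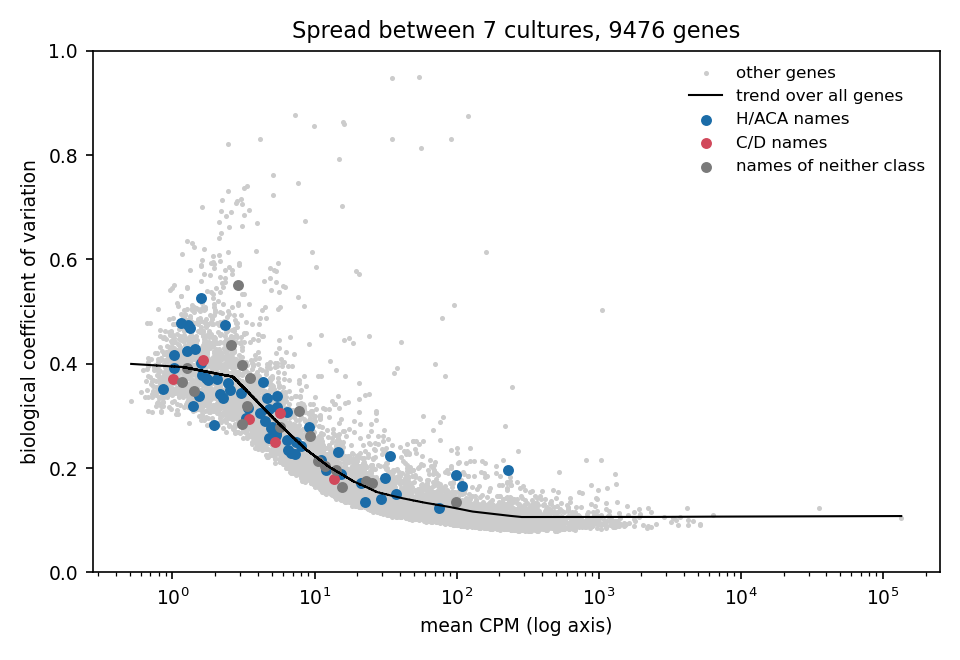
Biological coefficient of variation (y axis) against level (CPM, log x axis) for all genes with at least 10 counts in every library in grey, the 86 snoRNAs coloured by class, and the edgeR trend as a line. The snoRNAs, with a median of 0.295, scatter around the trend, whose median at their levels is 0.302 and towards which the values are pulled.

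The most variable single snoRNAs were all of low level. The highest CV was that of lola-d, 74.9%, with a lowest, median and highest level of 0.636, 3.01 and 7.18 CPM, and CC_6 as its high library. Psi28S-3305b in Hrb98DE followed with 65.4% and was likewise highest in CC_6, at 3.07 CPM against a median of 1.08 CPM. Psi28S-2442b in kra (64.8%) was instead highest in CC_1, with 3.13 CPM, and had 2.62 CPM in CC_3. Psi28S-2648 in RpL36A had a CV of 58.0% and Psi28S-3327a in RpS4 of 55.2%. The least variable were Psi18S-1377d (9.45%), Psi18S-176 (12.3%), Psi28S-3405c (13.5%), Psi28S-1180 and Me18S-C1968 (15.1%). The median CV was 29.2% for H/ACA, 28.8% for C/D and 31.3% for neither class, and these medians include counting error.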

How the data were processed

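The deposited values are whole-number read counts per gene, made by the authors with featureCounts and not normalized. The labels describe rRNA-depleted stranded total RNA read at 2 ends of 100 bases, but the study's methods name a kit for stranded mRNA and 150-base reads, while the paper's description of these cultures calls the data total RNA-seq, as the labels do. The submitters' processing notes name dm6. For the aligner, annotation, strand setting and treatment of multi-mapping reads, nothing is given in the sources used here. In the table, 8 further columns of per-sample values match no sample and were not used.

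CPM were computed from the library totals. Names, lengths and positions came from Ensembl release 115 (BDGP6.54), which names 17625 of 17753 identifiers, and synonyms from RefSeq. Psi and Or-aca names were classed as H/ACA, Me and Or-CD names as C/D. A host is a gene on the same strand whose span holds the snoRNA, and the smallest such gene where there are several. No sequences were used. The C/D protein hoip was not analysed here. Members and lists were chosen with earlier results of these data known. Named are the 10 highest RNAs of each class, the 5 nearest the limit on each side, the 5 most and least variable, all of neither class, the binding proteins, and hosts of 3 or more. Other RNAs named for families, hosts shared by both classes or order were chosen after their values were seen.

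Groups could not be compared, since a single condition was analysed. Homogeneity was tested by chi-square against library totals and adjusted over 9476 genes. BCV is the square root of the tagwise dispersion of edgeR (TMM, intercept only). In simulated counts a first self-test, with the same dispersion for all other genes, failed, and dispersions were then made to scatter. Tagwise values are pulled towards the trend and understate raised variability. A library was called outlying where its gap to the next exceeded 0.568 of the range. Alternatives were TMM and DESeq2 size factors, limits of 5 and 20 counts, 10 counts in at least 4 libraries, no limit, other classings, length, overlap, the highest RNA left out and each library left out. Python 3.11.15 with numpy 2.4.6, pandas 2.3.3 and scipy 1.17.1, and edgeR 4.0.16 and DESeq2 1.42.0 in R 4.3.3 were used.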

Additional observations from a re-analysis of the deposited data

Results flagged for a closer look

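Of 46 measures (class sums, their ratio and named snoRNAs), 5 had 1 library far from the other 6, where chance alone gives about 1 in 20, or 2.3 of 46. Over all 86 snoRNAs 6 had such a library, where chance gives 4.3. The measures are not independent, since single RNAs enter the sums, and some of the 46 were named for their high CV. The H/ACA sum was 1225 CPM in CC_6 against 759 to 940 CPM in the others. In the same library lola-d stood at 7.18 CPM (0.636 to 3.28 in the others) and CG32479-a at 15.1 CPM (4.45 to 8.53). Psi28S-1180 stood at 38.4 CPM in CC_5 (26.4 to 30.5), and snoRNA:229, in the other direction, at 2.70 CPM in CC_4 (5.16 to 6.93). The widest gap over all 86, relative to the range, was that of Psi28S-2626 in RpS7, which is not among the 46 and was picked after its values were seen, with 8.27 CPM in CC_1 (4.29 to 5.41). CC_6 had the smallest total count and the lowest sum of H/ACA host genes, and the part of either was not tested.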

How the results depend on the processing

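No paired analysis was possible because all 7 libraries belong to the same condition. The median C/D level of 4.38 CPM rests on 6 RNAs and was 1.65 CPM with 5 counts in each library, 5.28 with 20, 0.925 with 10 counts in at least 4 libraries, 0.0958 with no limit, 5.48 with all orphans as C/D, 5.71 with synonyms and U3 (added after the data were seen) and 44.2 per kb. The median H/ACA level was 2.15 CPM with 10 counts in at least 4 libraries, 1.41 with no limit and 32.7 per kb. The C/D sum was 50.8 CPM with all orphans and 101 with synonyms and U3. The ratio of sums was 17.6 and 9.19 under the same choices, 37.9 without snoRNAs that overlap an exon and 40.8 without the highest of each class. With 10 counts in at least 4 libraries 14 C/D genes passed and the median BCV of H/ACA was 0.320, and with DESeq2 it was 0.270. Without the 2 farthest libraries r turned to 0.58 for H/ACA against core proteins and 0.48 for C/D against hosts. The fewer or further RNAs, or the fewer libraries, that enter each of these values follow from the alternative itself, and any other cause was not tested. With each library left out, the medians ranged from 4.71 to 5.05 CPM (H/ACA) and 4.17 to 4.54 (C/D), the sums from 865 to 943 and 29.9 to 31.7, the ratio from 28.7 to 31.2, the BCV medians from 0.280 to 0.307 and 0.267 to 0.323, and the snoRNAs that varied from 81 to 85. TMM and DESeq2 scaling moved no class median or class sum beyond its spread and left the count of varying snoRNAs at 85, but took r of H/ACA against hosts from -0.53 to -0.82 and -0.81, and against core proteins from -0.45 to -0.77 and -0.73, none past the threshold after adjustment. Depth limits the lowest snoRNAs, where 10 counts are 0.472 CPM in CC_6.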
